A study of Mus musculus with 9 samples.

Results

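The 9 genes described here mark microglia. They are Cx3cr1, P2ry12, Csf1r, Trem2, Tmem119, Aif1, C1qa, C1qb and C1qc, among 33964 annotated genes with at least 1 transcript in the count files. For each gene the transcript with the highest mean count over the 9 libraries was taken, without regard to its differences between layers. The 9 chosen transcripts came from 22 annotated transcripts of these genes and from 95533 transcripts in all. All 9 passed the filter of at least 10 counts in at least 3 libraries, which 56416 transcripts passed.

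RNA was sequenced from 3 layers of piriform cortex, the olfactory cortex of the ventral forebrain, collected from frozen brain sections with a laser. All 9 libraries came from wild type C57BL/6 mice given as 8 weeks old in the sample labels (the study's methods give an older age), with no allele or treatment added. The libraries form layer A, layer B and layer C, with 3 replicates each, and no source says which letter is layer I, II or III. The labels do not say that replicates came from separate animals, so p-values measure the spread between these samples, which may be technical.

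Microglia are the resident macrophages of the brain. They depend on signalling through the receptor Csf1r, sense ATP and ADP through P2ry12, receive the neuronal chemokine fractalkine through Cx3cr1, and make the 3 chains of C1q, the molecule that starts the classical complement cascade. In adult cortex their fine processes survey the tissue between neurons, and several of these genes are also read by macrophages at the borders of the brain.

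The levels of the microglia genes differed between layers. Layer A had the highest mean level of all 9 genes and layer B the lowest. The median difference was 4.56-fold between layers A and B, 2.72-fold between layers A and C and 1.80-fold between layers C and B. Without layer B replicate 3, a library described below, these medians were 7.09-fold, 2.73-fold and 2.66-fold. When any other single library was left out, they were 3.94-fold to 4.84-fold, 2.52-fold to 3.46-fold and 1.48-fold to 1.97-fold. Levels are normalized CPM, which are counts relative to a library total scaled by TMM, edgeR's correction for library composition. Summed over the 9 genes, the level was 132, 147 and 126 CPM in layer A replicates 1, 2 and 3. The sums were 18.7, 21.3 and 43.2 CPM in layer B and 43.9, 43.1 and 60.6 CPM in layer C. Layer A therefore stood apart from the other layers, while the highest library of layer B reached the lowest of layer C. In such bulk tissue, fewer cells of a type and less RNA per cell cannot be told apart.

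Total counts were 23104306 to 76471683 per library. The mitochondrial ribosomal RNAs took 55.3% to 70.2% of the counts in layer A, against 12.8% to 28.1% in layer B and 20.5% to 57.1% in layer C. A library's 3 counts, taken as the floor of detection, equalled 0.0392 to 0.13 CPM before scaling. Layer B replicate 3 stood apart, with a median log2 ratio of upstream to whole-transcript counts of -2.34, against -1.70 to -1.38 in the other libraries. Its coverage thus lay nearer the 3′ end. The neuronal genes Slc17a7, at a mean of 116 to 249 CPM per layer, and Camk2a, at 811 to 2972 CPM, were read in every layer.

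To show sequence near the start of members that move together, RefSeq promoters (GRCm38.p6) were searched for GAGGAA and GGAAGT, letters of the binding sites of PU.1 and other ETS factors, on both strands. PU.1, encoded by Spi1, is a master factor of myeloid cells. Promoters were found for 6 members, Cx3cr1, P2ry12, Aif1, C1qb, C1qc and Trem2. Of the 250 bases before the start, 4 of these 6 windows held GAGGAA, against 23.25% of 32817 windows in the table. GGAAGT was found in 3 of them, against 19.73%. The joined form GAGGAAGT, in which both overlap, was found in 1, that of C1qc, against 2.44%. Annotated exons covered all 250 bases of the windows of Cx3cr1 and P2ry12, 151 bases of that of C1qc and 16 of that of Aif1. The windows of C1qb (chr4:136886201-136886450, minus strand) and Trem2 (chr17:48346151-48346400, plus strand) are printed because no annotated exon reaches into them, with matches in capitals.
C1qb: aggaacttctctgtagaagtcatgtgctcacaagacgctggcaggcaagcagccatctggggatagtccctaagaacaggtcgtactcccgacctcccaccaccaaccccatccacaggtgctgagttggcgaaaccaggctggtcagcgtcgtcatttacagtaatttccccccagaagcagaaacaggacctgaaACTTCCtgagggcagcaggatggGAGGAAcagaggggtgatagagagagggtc
Trem2: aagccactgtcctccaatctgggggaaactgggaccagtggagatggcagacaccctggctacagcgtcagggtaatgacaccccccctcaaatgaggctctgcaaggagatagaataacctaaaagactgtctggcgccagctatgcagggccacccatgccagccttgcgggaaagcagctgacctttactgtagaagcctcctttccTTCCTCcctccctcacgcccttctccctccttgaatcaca
In C1qb, GAGGAA began 30 bases before the start on the gene's strand, and GGAAGT lay on the opposite strand from 53 bases before it. In Trem2, GAGGAA lay on the opposite strand from 40 bases before the start. These matches are letters only, and no binding was measured.

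The 4 receptors of the set were all highest in layer A. Cx3cr1, the fractalkine receptor (chromosome 9, 120048683 to 120068296, minus strand, GRCm38), stood at 15.3, 18.1 and 15.5 CPM in layer A. It stood at 1.66, 2.49 and 5.94 CPM in layer B and at 5.61, 6.43 and 6.36 CPM in layer C. All layer A libraries lay far above the others, and layer B replicate 3 fell within the range of layer C. The A to B log2 fold change was 2.27 ± 0.43 (SE) (edgeR adjusted p = 0.00234) and 1.41 ± 0.42 between layers A and C (adjusted p = 0.0396).

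P2ry12, the purinergic receptor of resting microglia (chromosome 3, 59216359 to 59262831, minus strand), varied more within layer A, at 38.7, 25.6 and 16.4 CPM. It was at 2.92, 2.61 and 6.59 CPM in layer B and at 6.35, 8.85 and 8.48 CPM in layer C. Even its lowest layer A library was above every library of the other layers. It had the largest log2 fold change of the called members, 2.73 ± 0.43 (SE) between layers A and B (edgeR adjusted p = 0.000814) and 1.77 ± 0.42 between layers A and C (adjusted p = 0.0144). P2ry12 lies inside the gene Med12l on the other strand, with 0 shared exon bases.

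Csf1r, the receptor for the growth factors Csf1 and Il34 (chromosome 18, 61105852 to 61132149, plus strand), was nearly constant in layer A, at 31.0, 31.1 and 32.0 CPM. Layer B libraries had 5.47, 6.06 and 11.0 CPM and layer C libraries 11.7, 12.4 and 16.4 CPM. For this gene the 3 layers did not overlap at all, in the order A, C, B. The A to B log2 fold change was 2.06 ± 0.34 (SE) (edgeR adjusted p = 0.00094) and 1.22 ± 0.33 between layers A and C (adjusted p = 0.0261). This transcript shares 873 exon bases with Hmgxb3 on the opposite strand, and the libraries did not keep strand, so the reads of that stretch cannot be told apart. The other Csf1r transcript in the files gave 2.22 between layers A and B (adjusted p = 0.000842).

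Trem2, the lipid-sensing receptor that signals through the adaptor Tyrobp (chromosome 17, 48346440 to 48354147, plus strand), was low. Its level was 2.71, 3.87 and 5.40 CPM in layer A, 0.336, 0.692 and 1.85 CPM in layer B and 0.833, 0.701 and 2.24 CPM in layer C. Layer A did not overlap with the other layers, but layer B replicate 3 and layer C replicate 3 came within reach of its lowest library. The A to B log2 fold change was 2.06 ± 0.62 (SE) (edgeR adjusted p = 0.0324). It was 1.63 ± 0.61 between layers A and C, which did not pass (adjusted p = 0.103). The chosen Trem2 transcript, ENSMUST00000132340, is annotated as a retained intron of 4784 bases. The protein coding transcript ENSMUST00000024791 had log2 fold changes of 1.97 (adjusted p = 0.0497) and 1.46 (adjusted p = 0.168), on the same sides of the threshold.

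Tmem119, a surface protein used to tell microglia from other macrophages (chromosome 5, 113793729 to 113800516, minus strand), had 9.47, 18.7 and 12.1 CPM in layer A. It had 1.73, 2.42 and 2.41 CPM in layer B and 6.27, 2.68 and 5.68 CPM in layer C. The layers again did not overlap, though layer C replicate 2 came close to layer B. The A to B log2 fold change was 2.61 ± 0.42 (SE) (edgeR adjusted p = 0.000843) and 1.45 ± 0.40 between layers A and C (adjusted p = 0.0292).

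Aif1, the actin-binding protein Iba1 of microglial staining (chromosome 17, 35170992 to 35176001, minus strand), rested on few counts. Layer A had 24, 27 and 85 counts, layer B 10, 5 and 67, and layer C 24, 8 and 92. Scaled, these were 2.03, 1.80 and 2.12 CPM in layer A, 0.224, 0.115 and 1.39 CPM in layer B and 0.588, 0.51 and 0.783 CPM in layer C. The 3 libraries of layer A lay close together and above all others, while layer B spread widely because of replicate 3. The log2 fold changes, 1.77 ± 0.71 (SE) between layers A and B (edgeR adjusted p = 0.107) and 1.63 ± 0.71 between layers A and C (adjusted p = 0.168), did not pass. Without layer B replicate 3 both comparisons of Aif1 passed.

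**Figure D1:**
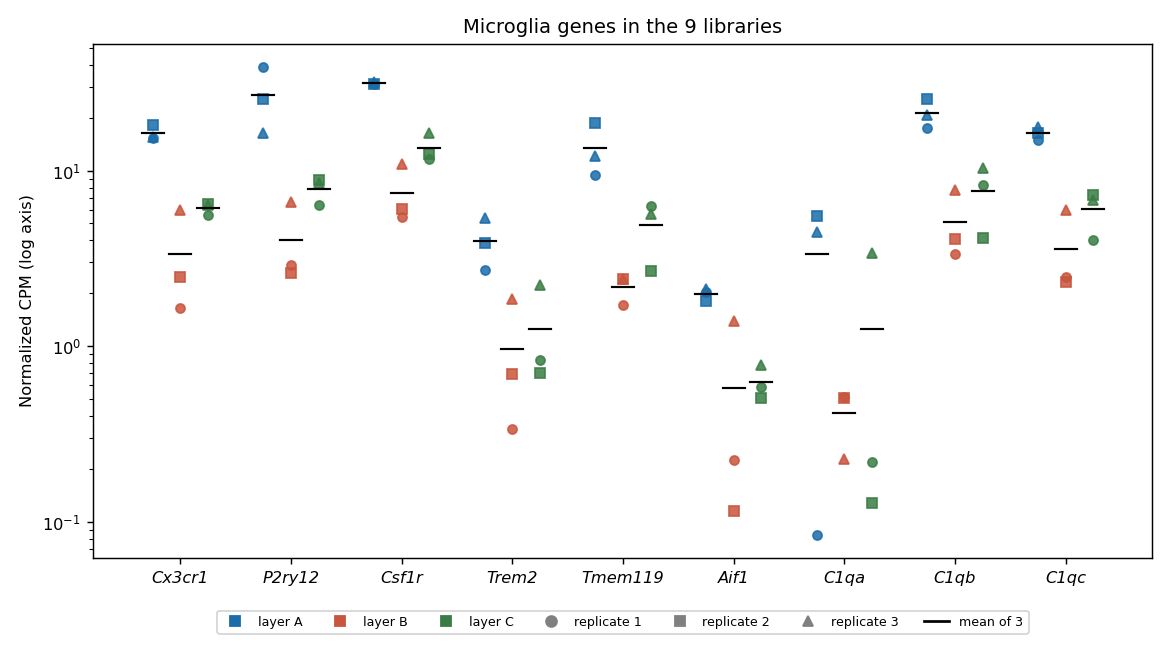
Normalized CPM of each microglia gene on a log axis, with a point per library (colour for layer, shape for replicate) and a bar at the mean of 3. The layer A points lie above the others for 8 of 9 genes, and C1qa has its lowest point, 0.0846 CPM, in layer A replicate 1.

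The 3 genes of C1q lie side by side on chromosome 4, C1qb from 136880129 to 136886187, C1qc from 136889804 to 136893065 and C1qa from 136895917 to 136898803, all on the minus strand. The chains they encode assemble in equal numbers. C1qb was at 17.6, 25.5 and 20.7 CPM in layer A, 3.36, 4.06 and 7.79 CPM in layer B and 8.28, 4.14 and 10.4 CPM in layer C. C1qc was at 14.9, 16.5 and 17.8 CPM in layer A, 2.49, 2.31 and 5.99 CPM in layer B and 4.04, 7.26 and 6.80 CPM in layer C. Both were higher in every library of layer A than in any other, and layers B and C overlapped. The log2 fold changes of C1qb were 2.07 ± 0.41 (SE) between layers A and B (edgeR adjusted p = 0.00343) and 1.47 ± 0.41 between layers A and C (adjusted p = 0.0294). Those of C1qc were 2.19 ± 0.41 (adjusted p = 0.00248) and 1.45 ± 0.41 (adjusted p = 0.0315).

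C1qa did not follow its neighbours library by library. It had 1, 83 and 179 counts in layer A, 23, 22 and 11 in layer B and 9, 2 and 399 in layer C. As a level this was 0.0846, 5.54 and 4.46 CPM in layer A, 0.516, 0.507 and 0.229 CPM in layer B and 0.221, 0.127 and 3.39 CPM in layer C. Layer A replicate 1 was the lowest library of all, so C1qa was the only member whose layer A libraries were not all above those of layers B and C. Its A to B difference was the highest of the members, 3.02 on the log2 scale, but with an SE of 1.09 it did not pass (edgeR adjusted p = 0.071). Between layers A and C it was 1.35 ± 1.00 (adjusted p = 0.462).

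C1qa made up 0.26% of the C1q counts in layer A replicate 1 (1 of 385, 95% Wilson interval 0.0459% to 1.46%). In layer C replicate 3 it made up 16.5% (399 of 2422, interval 15.1% to 18.0%). The reads carry no molecular identifiers, so these intervals cover counting error only. The share was 1.10% in layer C replicate 2, 1.63% in layer B replicate 3 and 1.76% in layer C replicate 1, and 7.38% to 11.7% in the other 4 libraries. Low and high shares thus occurred in all of the layers but did not sort by layer. In an exact permutation test over the 1680 ways to assign the layers, the log2 ratios (0.5 counts added) of C1qb to C1qa, C1qc to C1qa and C1qb to C1qc gave p = 0.996, 0.957 and 0.929 (adjusted over these 3 ratios, p = 0.996 for each). The smallest p that this design allows is 0.00357. The log2 ratio of C1qb to C1qa ranged from 1.61 to 7.12 across libraries, and that of C1qb to C1qc from -0.81 to 1.03.

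**Figure D2:**
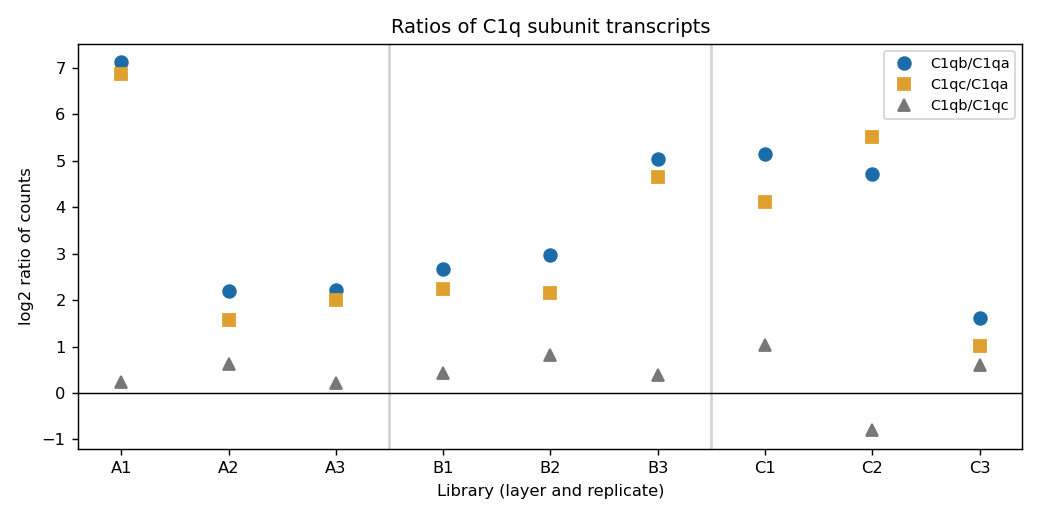
The log2 ratio of counts between pairs of C1q genes (0.5 counts added) in each library, grouped by layer along the horizontal axis. The ratio of C1qb to C1qc stays within -0.81 to 1.03, whereas both ratios to C1qa spread up to 7.12 and differ as much within layers as between them.

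A library index of base composition was set beside C1qa. It is the median log2 level of 13275 transcripts of at least 55% GC less that of 10181 transcripts of at most 45% GC, centred over libraries. The index was -0.62 in layer A replicate 1, -0.58 in layer C replicate 2 and -0.50 in layer B replicate 3, and 0.12 to 0.47 in the other 6 libraries. The 3 libraries with the lowest index were also the 3 with the lowest share of C1qa, a transcript of 59.5% GC. Layer C replicate 1, with an index of 0.25, had a low share as well. The log2 ratio of P2ry12 (39.6% GC) to Tmem119 (59.1% GC) was 2.03, 1.71 and 1.45 in those 3 libraries and 0.02 to 0.75 in the other 6. In layer A replicate 1, where C1qa had 1 count, C1qb (57.35% GC) had 208 and C1qc (57.52% GC) had 176. Tmem119 had 112 counts there. The part of base composition in these values was not tested directly. With trends of GC content and length removed, a fit added after the data were seen, the A to B difference of C1qa was 3.08 and passed (adjusted p = 0.0454). Calls over all 56416 transcripts rose as well in that fit, from 9329 to 10864. With the replicate number also in that fit as a block the difference of C1qa was 2.44 and did not pass (adjusted p = 0.103). Some fits that left GC trends in place also called C1qa between layers A and B. They were the fit without a count filter (edgeR adjusted p = 0.0156) and that of the 6 libraries of these layers alone (0.0418). The others were the fits without layer A replicate 1 (0.0345) or layer C replicate 3 (0.0243). In the remaining alternatives C1qa did not pass or was not tested.

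Counted over the members, 7 of 9 were higher in A than in B and none was lower. Over all 56416 tested transcripts, 10.7% were called higher in layer A and 5.83% lower. With only the highest-count transcript of each gene fitted, 3691 of 15174 were called, 2254 of them higher in layer A. At an unadjusted p under 0.05 all 9 members differed, against 29.0% of all transcripts. The median log2 fold change was 2.19 over the members and -0.12 over all tested transcripts. Every layer A library was above every layer B library for 8 of 9 members, against 17.2% of all transcripts. Aif1 and C1qa were the members not called. They also had the largest standard errors of the list.

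Between layers A and C, 6 of 9 members were higher in layer A and none was lower, against 6.98% of all transcripts called higher and 4.35% called lower. In the fit of 1 transcript per gene, 2774 of 15174 were called, 1682 of them higher in layer A. At an unadjusted p under 0.05, 8 of 9 members differed, against 24.5%. Aif1, C1qa and Trem2 did not pass. The median log2 fold change was 1.45 over the members and -0.0067 over all transcripts, and layer A lay entirely above layer C for 8 of 9 members, against 17.0%. The A to B and A to C comparisons share the layer A libraries. The A to C calls rest on several libraries. Without layer A replicate 1, 2 or 3 the count fell to 1, 1 and 2 members, and without layer C replicate 1, 2 or 3 to 0, 1 and 5. Those 5 were P2ry12, Csf1r and C1qb, with C1qa and Trem2 newly called, while Cx3cr1, Tmem119 and C1qc no longer passed. Over all transcripts the calls fell as well in those 6 fits, from 6389 to between 1369 and 5020. The direction held for all 9 members in each of them.

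Between layers B and C no member was called by edgeR or by DESeq2. Over all transcripts edgeR called 0.0%, and DESeq2 called 130 of 56285. Every member had a lower mean in layer B. At an unadjusted p under 0.05, 3 of 9 members differed, against 4.11% of all transcripts, and all 3 were lower in layer B, against 3.14%. These were Tmem119 (log2 fold change, B minus C, -1.17 ± 0.40 SE), P2ry12 (-0.96 ± 0.41) and Csf1r (-0.85 ± 0.33), with edgeR adjusted p of 0.904, 1.00 and 1.00. Csf1r and Tmem119 were also the 2 members whose layer C libraries all lay above those of layer B, against 4.67% of all transcripts, and for no member did layer B lie entirely above layer C, against 3.92%. The order A, C, B of the layer means held for all 9 members and for 21.8% of all transcripts. When the 3 layers were tested together, the test called 7 of 9 members, against 14.3% of transcripts.

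**Figure D3:**
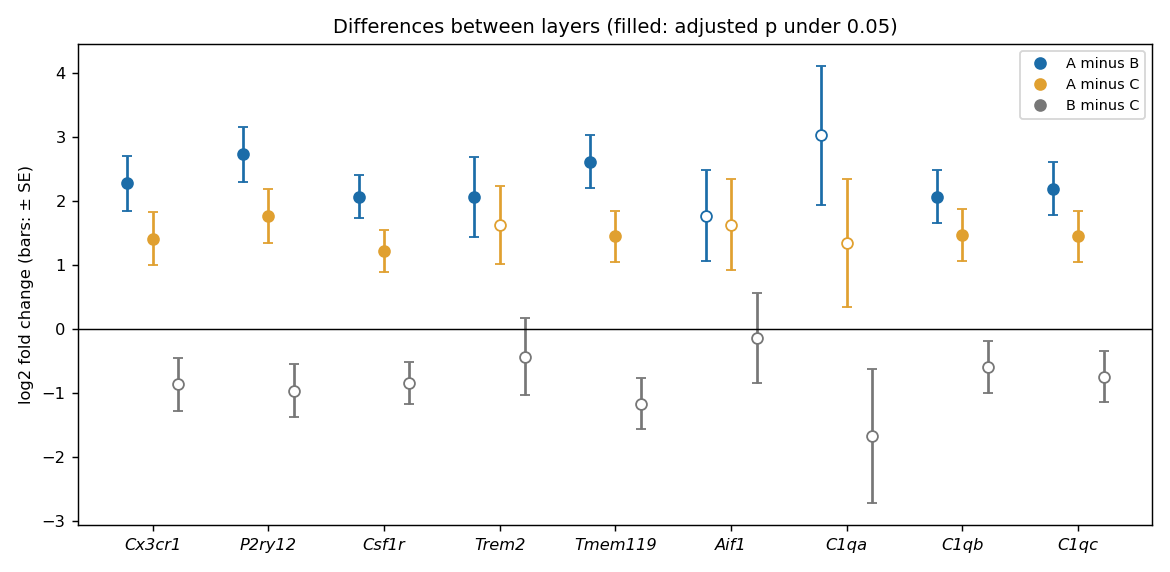
The log2 fold change of each microglia gene between pairs of layers, with bars of 1 SE and filled points where the edgeR adjusted p was under 0.05. The A minus B points lie between 1.77 and 3.02, the A minus C points between 1.22 and 1.77, and the B minus C points between -1.68 and -0.14, none of them filled.

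Layer B replicate 3 had the highest level of layer B for 7 of 9 members, all but Tmem119 and C1qa. Without it the A to B log2 fold change moved from 2.27 to 3.03 for Cx3cr1, from 2.73 to 3.33 for P2ry12, from 2.06 to 3.02 for Trem2 and from 2.19 to 2.83 for C1qc. With this library left out, 8 of 9 members were called between layers A and B and 8 of 9 between layers A and C. Calls over all transcripts rose as well. They went from 9329 of 56416 to 11336 of 55684 between layers A and B, and from 6389 to 9742 between layers A and C. The oligodendrocyte list described below had a summed level of 37.1 to 201 CPM across the layer B libraries.

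Compared per length, C1qb had the highest mean of the members in every layer, at 19.5, 4.66 and 6.99 CPM per kilobase in layers A, B and C. C1qc followed at 13.6, 2.99 and 5.02, and P2ry12 at 11.96, 1.79 and 3.51 CPM per kilobase. The SD between replicates was 3.65 for C1qb, 1.23 for C1qc and 4.99 for P2ry12 in layer A. There the libraries of C1qb, at 16.2, 23.4 and 19.1 CPM per kilobase, all lay above those of C1qc, at 12.4, 13.7 and 14.8. P2ry12, at 17.2, 11.4 and 7.27 CPM per kilobase, overlapped with both, and C1qb and C1qc overlapped in layers B and C. Csf1r (6.67), Tmem119 (5.98) and Cx3cr1 (4.34) came next in layer A. C1qa (3.23), Aif1 (2.27) and Trem2 (0.835) were lowest, although the coding transcript ENSMUST00000024791 of Trem2, being shorter, stood at 3.02 CPM per kilobase. In layer C replicate 2, C1qc (6.04 CPM per kilobase) was above C1qb (3.81). Division by length takes coverage as even along each transcript, which was not tested for the members. Coverage did differ between libraries, since that of layer B replicate 3 lay nearer the 3′ end, as described above. Without that division, Csf1r (31.4 CPM) and P2ry12 (26.9 CPM) had higher layer A means than C1qb (21.3 CPM).

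The other genes of microglia were read from lists. Of 14 further microglia genes, 13 were matched and tested, 12 were higher in A than in B and 8 were higher than in layer C, with none lower. The median log2 fold changes were 2.26 and 1.72. The smallest p between layers A and B belonged to Sall1, the transcription factor of microglial identity (2.79 ± 0.40 SE, edgeR adjusted p = 0.000416), Olfml3 (3.01), the sialic acid receptor Cd33 (2.98) and the Fc receptor-like Fcrls (2.56). Rgs10, a regulator of G-protein signalling, was at 6.73, 6.18 and 4.36 CPM in layers A, B and C and did not pass (adjusted p = 0.915).

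Of 15 genes shared with other leukocytes and myeloid cells, 12 were higher in A than in B, 1 was lower and 2 did not pass, with a median of 2.20. Laptm5 (2.64), the factor Irf8 (3.47), the complement receptor chain Itgam (3.02) and the tetraspanin Cd53 (2.61) had the smallest p. Spi1 (2.06, adjusted p = 0.0561) and the lysosomal Cd68 (1.12, adjusted p = 0.0563) did not pass. Coro1a, an actin regulator, was lower in layer A, by a log2 fold change of -1.59 (adjusted p = 0.0108). Between layers A and C, 7 of 15 were higher in layer A and none was lower.

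The ligands of the member receptors did not all follow the receptors. Cx3cl1, the neuronal ligand of Cx3cr1, was at 9.39, 34.1 and 43.0 CPM in layer A, 184, 166 and 158 CPM in layer B and 129, 78.5 and 115 CPM in layer C. Every layer A library was below all others, the reverse of its receptor. The log2 fold change was -2.55 ± 0.44 (SE) against layer B (edgeR adjusted p = 0.0013) and -1.89 ± 0.43 against layer C (adjusted p = 0.0118). For Csf1r, the ligand Csf1 was higher in A than in B (1.53 ± 0.43, adjusted p = 0.0224) with means of 6.67, 2.31 and 3.53 CPM in layers A, B and C. The other ligand, Il34, which neurons make, had means of 4.64, 8.16 and 7.69 CPM and did not pass (-0.80 ± 0.39, adjusted p = 0.191). The phosphatase Inpp5d did not pass either (1.32, adjusted p = 0.0682).

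Tyrobp, the adaptor of Trem2, was at 5.41, 5.47 and 6.03 CPM in layer A, 0.74, 0.692 and 2.22 CPM in layer B and 1.23, 0.955 and 3.28 CPM in layer C. Its differences, 2.20 from layer B (adjusted p = 0.0129) and 1.59 from layer C (adjusted p = 0.0737), were close in size to those of Trem2. Apoe, a lipid carrier that binds Trem2 and that astrocytes also make, was higher in A than in B (2.68, adjusted p = 0.00318) and in layer C (2.18, adjusted p = 0.0152). Of the 12 ligands and partners tested among 13, 9 were higher in A than in B and 1, Cx3cl1, was lower. The receptors Tgfbr1 (2.67) and Tgfbr2 (3.03) of TGF-beta, which maintains microglia, were among those higher.

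In the complement list, 11 of 15 genes were tested, 7 were higher in A than in B, and the inhibitor Csmd1, a neuronal membrane protein, was lower (-1.35, edgeR adjusted p = 0.0181). Serping1, the inhibitor that removes C1r and C1s from C1q, had 32, 42 and 320 counts in layer A, 6, 11 and 8 in layer B and 10, 3 and 58 in layer C. It had the largest difference of this list, 4.60 ± 0.62 (SE) between layers A and B (adjusted p = 0.000287). C4b, the next component of the classical cascade, had 7, 36 and 63 counts in layer A and 2, 2 and 9 in layer B (3.99, adjusted p = 0.00317). The proteases that act with C1q, C1ra and C1s1, and the central component C3, had at most 2, 10 and 6 counts in any library and were below the filter. C2 (0.35) and the inhibitor Cd55 (0.22) did not pass.

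Genes of activated or disease-associated microglia were mostly near the floor. Of 16 such genes, 9 were below the filter, among them Cst7, Clec7a and Itgax, with at most 4, 5 and 4 counts in any library. Tnf had 0 counts in all 9 libraries, and 3 counts, the upper limit for a count of 0, would be at most 0.13 CPM before scaling. Of the 7 tested, 4 were higher in A than in B, namely Axl (3.20), Ctsd (1.21), Spp1 (3.39) and Cd9 (2.46). The protease Ctsb (-0.10), Lpl (-1.26) and Gpnmb (1.40) did not pass. Between layers A and C only Axl passed (2.35, edgeR adjusted p = 0.00233). Astrocytes and vessels also express Axl and Cd9.

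Markers of other cell types moved with the microglia genes. Of 12 genes of border macrophages, which sit around vessels and in the meninges, 7 were tested and 6 were higher in layer A than in each other layer. They were Mrc1 (71, 62 and 211 counts in layer A and 10, 7 and 27 in layer B), Stab1 (log2 fold change between A and B, 3.09), F13a1 (3.64), Lyve1 (2.75), H2-Aa (4.79) and Cd74 (4.34), while Cd163 (1.28) did not pass. The summed level of the border macrophage genes that passed the filter was 19.4 to 26.9 CPM in layer A, 1.84 to 3.22 CPM in layer B and 2.35 to 5.67 CPM in layer C, below that of the 9 members in every layer. Ms4a7 had 0, 3 and 21 counts in layer A and Folr2 had 0, 7 and 14, both below the filter. Their part in the member differences was not tested. The 9 genes of blood leukocytes were all below the filter, with a sum of 2 to 14 counts in layer A libraries, 0 to 2 in layer B and 0 to 14 in layer C.

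All 8 astrocyte genes, 7 of 8 endothelial genes, all 6 pericyte and smooth muscle genes and all 5 meningeal fibroblast genes were also higher in A than in B. Their median log2 fold changes were 3.16, 3.06, 3.63 and 5.22, each above the 2.19 of the microglia genes. The summed astrocyte level was 4838 to 10288 CPM in layer A, 675 to 1113 CPM in layer B and 1199 to 1650 CPM in layer C. The summed meningeal fibroblast level was 25.2 to 61.5 CPM in layer A, 0.561 to 3.16 CPM in layer B and 1.02 to 2.03 CPM in layer C. All 4 oligodendrocyte precursor genes were higher than in layer B, with a median of 2.43. Of the 6 genes of mature oligodendrocytes none passed (median 1.19), with 1 under an unadjusted p of 0.05. Among erythrocyte genes 1 of 3 tested was higher, Hbb-bt (2.81).

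Neuronal lists were mixed. Of 5 glutamatergic genes, 1 was higher in A than in B, Camk2a (1.87), and 2 were lower, Tbr1 (-1.06) and Neurod2 (-1.62). Of 4 GABAergic genes, 1 was higher, Gad2 (1.91). The share of tissue that each cell type gave to a layer was not measured, and its part in the microglia differences was not tested.

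**Figure D4:**
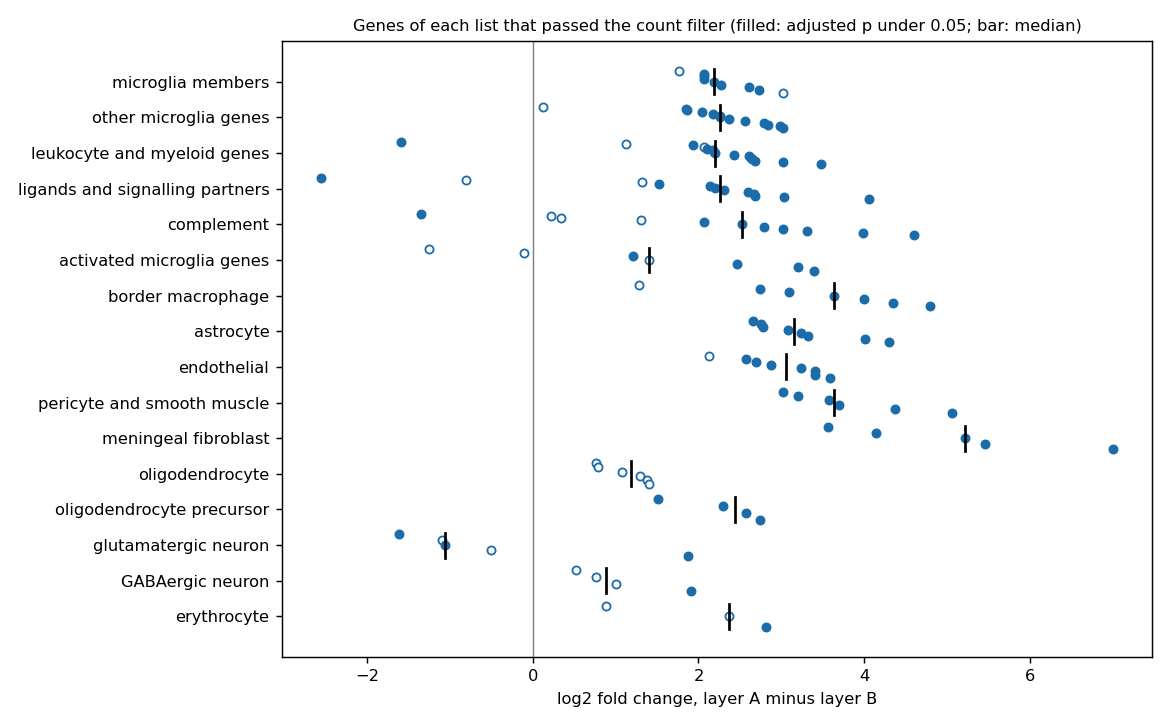
The A minus B log2 fold change for each gene that passed the count filter, by list, with filled points where the edgeR adjusted p was under 0.05 and a bar at each list's median. The microglia genes have a median of 2.19, lower than the astrocyte (3.16), endothelial (3.06) and meningeal fibroblast (5.22) medians and above that of mature oligodendrocytes (1.19), none of which is filled.

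The genes outside the set whose pattern over the 9 libraries was most like the mean standardized member profile were named from 15165 genes. They were Plekhb1 (r = 0.98), Vwa1 (0.98), Fxyd3 (0.98), Grin2c (0.98), Slc13a5 (0.98), Hepacam (0.98), Hsd11b1 (0.98), Aldoc (0.98), S100a1 (0.98) and Olfml1 (0.98). These correlations describe 9 libraries that share layers, depth and base composition, and carry no test. Aldoc is a gene of the astrocyte list, and Hepacam is a known astrocyte adhesion molecule. Among the members, r with this profile was 0.91 to 0.98, except for C1qa at 0.51. Each member is itself part of the profile, which raises its r, so these values do not compare with those of outside genes. With layer means removed, the closest were Olig1 (0.99), Mcm6 (0.99), Gm12074 (0.99), Gm12222 (0.99), Nubp2 (0.98), Gm12744 (0.98), Dbi (0.98), Rpl38-ps2 (0.97), S100a13 (0.97) and Nudt19 (0.97). Olig1 is a gene of the oligodendrocyte precursor list. None of these genes is in the fixed lists of microglia or myeloid genes. Members had r of 0.31 for C1qa to 0.96 for Csf1r, with Tmem119 at 0.49 and P2ry12 at 0.56.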

How the data were processed

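RNA from laser-captured tissue was amplified with the Ovation system, and the libraries did not keep strand. Bowtie was used by the authors to map the read pairs on mm10, and for every Ensembl transcript they deposited its count of reads as it stood. The labels' processing notes also name bcl2fastq 1.8.4 and HTSeq 0.5.3, without a role. How reads shared by several transcripts were counted is not given in the sources used here. Reads that span splice junctions may be lost in such an alignment. Transcripts were joined to GENCODE vM21 (GRCm38), and 86.68% were found. Those not found held 9.707% of all counts and stayed in the fit.

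Library sizes were scaled by TMM, and edgeR 4.0.16 in R 4.3.3 was fitted (quasi-likelihood) over all 9 libraries, after a filter of at least 10 counts in at least 3 libraries. Benjamini-Hochberg adjustment ran over all 56416 transcripts, with a threshold of 0.05. Standard errors are the log2 fold change divided by the root of its F statistic. The method was tested on simulated data. Alternatives were other scalings, DESeq2 1.42.0, other filters, gene sums, a replicate block, the compared layers only, each library left out, and, chosen after seeing the data, removal of GC and length trends. Total counts were 23104306 to 76471683.

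The members and gene lists were chosen with earlier results of these data known. The text names all members, up to 4 genes per list with the smallest p between layers A and B and up to 2 that did not pass, some fixed partners, and the 10 genes most like the members with and without layer means. Further list genes (Lyve1, H2-Aa, Cd74, Coro1a, Csmd1, Gpnmb, Hbb-bt and the neuronal genes) were named after their values were seen. Bin2 and C5 of the lists were not matched.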

Additional observations from a re-analysis of the deposited data

How the results depend on the processing

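The number of members called between layers A and B was 7 to 8 over the 12 alternatives other than leaving out a library, and 6 to 8 over the 9 fits that left out 1 library, with Trem2 lost without layer A replicate 2 or 3 or layer B replicate 1 or 2. Between layers A and C it was 6 to 8 over the 12 alternatives and 0 to 8 when 1 library was left out. In the test of any difference it was 6 to 8 in both kinds of fit, and between layers B and C it was 0 throughout. Over all transcripts, the calls between layers B and C were at most 130 of 56285, with DESeq2. Of 187 refitted member fold changes between layers A and B, 174 kept direction and side of the threshold, 4 no longer passed, 9 newly passed and 0 changed sign. Between layers A and C these numbers were 151, 28, 8 and 0. Between layers B and C, 182 of 187 kept both and 5 changed sign. These were Aif1 (-0.14) at 0.22, 0.32 and 0.05 without layer B replicate 1, layer B replicate 2 and layer C replicate 3, C1qa (-1.68) at 1.13 and Trem2 (-0.44) at 0.29, both without layer C replicate 3. When 1 library was left out, these 3 values ranged from -1.95 to 0.32 for Aif1, from -2.20 to 1.13 for C1qa and from -1.41 to 0.29 for Trem2. The cause was not tested.

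Pairing of the libraries by replicate number was not clear. Of the same-numbered pairs, 4 of 9 had a correlation of deviations over 0.1 (range -0.19 to 0.24). Likewise, 4 of 9 libraries correlated best with their own number. With 3 libraries per layer, this check cannot decide whether libraries of the same number shared an animal or a batch. With the replicate number as a block, 8 members were called between layers A and B (Aif1 added), 7 between layers A and C (Trem2 added), 0 between layers B and C and 7 in the test of any difference. Over all 56416 transcripts that fit called 9184, 6384, 0 and 7903, against 9329, 6389, 0 and 8061 in the main fit. With totals that left out mitochondrial transcripts in place of TMM, the median log2 fold change of all transcripts moved from -0.12 to -0.016 between layers A and B, and without layer B replicate 3 to 0.0048. Member calls between layers A and B numbered 7 and 8 in those fits, against 8717 of 56416 and 11336 of 55684 transcripts. Without GC and length trends 8 members were called between layers A and B and 6 between layers A and C, and with the block added 8 and 7, with Aif1 in place of C1qa between layers A and B. Over all 56416 transcripts calls rose as well, to 10864 and 7506, and with the block added to 11413 and 7996. The C1q ratio tests stayed above the threshold in each alternative run. The lowest count in a library was 5 for Aif1, 1 for C1qa and 11 for Trem2, and the part of depth in their calls was not tested.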
